A study of Mus musculus with 6 samples.

Results

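DNA replication genes were examined in RAW264.7 cells, an established line of transformed mouse macrophages that can turn into osteoclast-like cells when given the cytokine RANKL. Total RNA was measured on Affymetrix mouse arrays after 24 hours in low-sodium medium (120 mmol/l sodium, 3 arrays) or normal-sodium medium (137 mmol/l, 3 arrays). The low-sodium medium held added mannitol, with an osmolality of 290 mOsm/l, so both sodium and mannitol distinguish the media. The submitters state 4 biological replicates per medium, and 3 per medium were analysed here. The labels name 10 ng/ml of M-CSF, a macrophage growth factor, together with 30 ng/ml of RANKL, in a wording that leaves unsettled whether the normal-sodium cultures were given them. A list of 45 genes was taken by name, with earlier results of these data known. The 45 genes covered origin licensing, origin firing, the replicative polymerases, the sliding clamp and its loader, single-strand binding, lagging-strand maturation and chromatin assembly. A probe set annotated to that gene alone was found for 44 of them, out of 18193 genes measured, and Chaf1a was not analysed here. Where a gene had several such probe sets, the one with the highest mean signal stood for it.

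Before a cell copies its DNA, the origin recognition complex marks replication origins, and CDC6 and CDT1 load the MCM2-7 helicase there in an inactive form. In S phase the DDK kinase, CDC45 and the GINS complex turn the helicase on, and polymerase alpha with primase, polymerase delta and polymerase epsilon copy the strands. The PCNA clamp, which the RFC complex loads, holds polymerase delta on the template. Many of these genes are transcribed at the G1/S transition by E2F factors, and macrophage-lineage cells are known to leave the cell cycle as they mature into osteoclasts.

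The arrays of replicate 3 of both media stood apart from the other 4. The median intensity was lowest on the low-sodium replicate 3 array, at 47.65. It was 55.91 on the normal-sodium replicate 3 array and 66.26 to 74.21 on the arrays of replicates 1 and 2. Labelling-control transcripts averaged a log2 intensity of 8.50 on the low-sodium and 8.54 on the normal-sodium replicate 3 array, and 10.19 to 10.45 on the arrays of replicates 1 and 2. The 3′ probe set of mouse Gapdh differed from its 5′ probe set by log2 values between -0.36 and -0.22 over the 6 arrays, while for the added dap control this difference was 3.28 in low sodium and 2.93 in normal sodium in replicate 3, and 1.22 to 1.46 on the other arrays. The part of these properties in the results was not tested. Each difference is therefore given within replicates 1 and 2, within replicate 3, and over all arrays with a term for replicate 3 (the replicate-3 fit). That fit was chosen by an earlier analysis of these arrays with its counts in view, and the plain comparison of 3 with 3 arrays is given beside its totals. All 10 macrophage markers were bright (mean log2 intensity of 10.23 or more, summing to 132.0 to 133.8 in low sodium and 129.4 to 132.0 in normal sodium), and of 9 measured markers of fibroblasts, epithelium, endothelium, lymphocytes and liver none had a mean above 7.14. Of these 9 markers 3 were above the median level of all probe sets. Of 10 osteoclast markers 8 were above the median level of all probe sets (Calcr and Itgb3 were not), as were 10880 of the 18193 genes. In the replicate-3 fit 5 of the 10 rose and 0 fell, where 3.78% of all genes were called higher and 3.81% lower. The summed log2 intensity of the osteoclast markers was 71.70 to 81.05 in low sodium and 60.26 to 72.71 in normal sodium. Its part in the replication results was not tested.

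Most replication genes had lower signals in low sodium. Of the 44 genes 17 fell and 0 rose in the replicate-3 fit (adjusted p under 0.05), where 3.81% of all genes were called lower and 3.78% higher. Of the 7860 genes at least as bright as the dimmest of the 44, 8.38% were called lower. The median log2 difference over the 44 genes was -0.51 on all arrays, -0.30 in replicates 1 and 2 and -0.79 in replicate 3, against 0.02 and -0.06 over all genes in replicates 1 and 2 and in replicate 3. Differences were below 0 for 41 of the 44 in replicates 1 and 2 (47.7% of all genes), for 39 in replicate 3 (53.8% of all genes) and for 38 in both (30.2% of all genes), and 35 were more negative in replicate 3 (54.4% of all genes). All 3 low-sodium arrays lay below all 3 normal-sodium arrays in 26 of the 44, where 9.07% of all genes did so. The plain limma comparison called 0 of the 44 (0.0055% of all genes were called), and 12 of them had an unadjusted p under 0.05, all lower, against 3.86% of all genes lower and 4.29% higher. In RNA from whole cultures, fewer cells in S phase and less of these RNAs per cell cannot be told apart. In what follows "fell" refers to the replicate-3 fit, and log2 values of the 6 arrays are given in the order of replicates 1, 2 and 3.

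**Figure D1:**
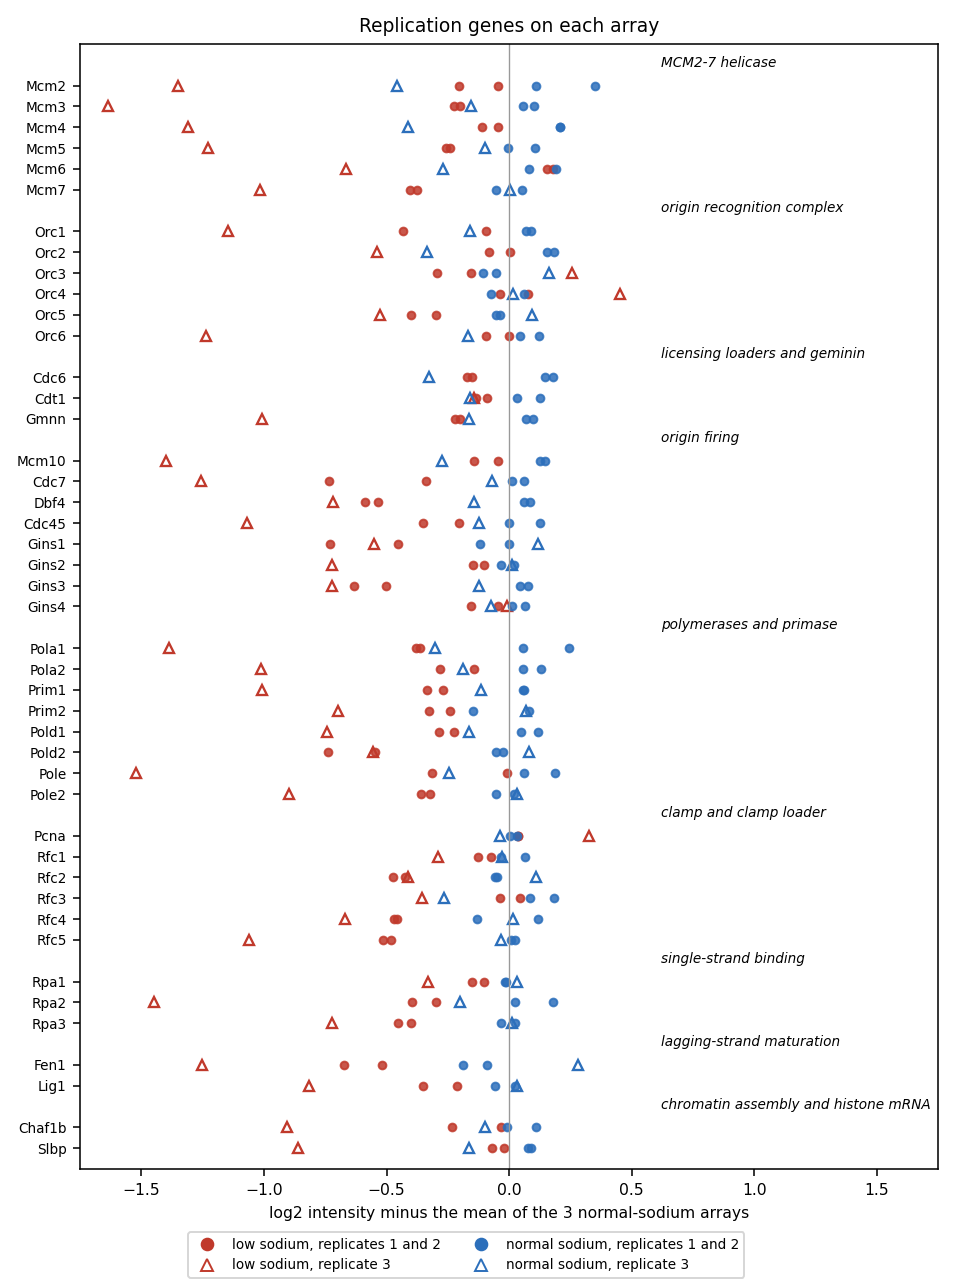
Log2 intensity of each of the 44 replication genes on each array (x axis), minus the mean of the 3 normal-sodium arrays, grouped by role down the page. Red marks are low-sodium and blue marks normal-sodium arrays, circles are replicates 1 and 2 and open triangles replicate 3. The open red triangles lie furthest to the left in most rows, while those of Pcna, Orc3 and Orc4 lie to the right. The axis leaves out that of Cdc6, which lies further left (8.04 against a normal-sodium mean of 10.10).

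The count of 17 depended on single arrays and on the use of 1 probe set per gene. With the mean of all probe sets of a gene the replicate-3 fit called 8 of the 44. Mcm7, Mcm2, Orc5, Gmnn, Dbf4, Gins1, Pola1, Prim1 and Rfc2 were among those no longer called. Orc5 and Gmnn have 1 probe set each and kept their differences (-0.41 and -0.48). For them only the variance prior and the adjustment over all genes changed. The difference of Mcm7 went from -0.60 to -0.72. Without low-sodium replicate 1, 2 or 3 the replicate-3 fit called 2, 4 and 26 genes, and without normal-sodium replicate 1, 2 or 3 it called 5, 2 and 26, all of them lower. Without either replicate 3 array the fit rests on replicates 1 and 2, and on replicates 1 and 2 alone it called 27 of the 44 lower and 0 higher, where 7.6% of all genes were called lower and 7.27% higher, and 16.8% of the equally bright genes lower. With a constant in place of a trended prior for the variance it called 0 of the 44. With a term for each replicate number in place of the replicate-3 term, 3 were called (Dbf4, Pold2 and Rfc5).

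The difference between the media was itself larger in replicate 3 for many of these genes. An interaction term called 19 of the 44 more negative in replicate 3 (5.35% of all genes) and 1, Pcna, more positive (4.75% of all genes), where 10.4% of the equally bright genes were more negative and 10.3% more positive. With a constant prior for the variance it called 0. Replicate 3 holds 1 array of each medium, and the test takes the spread of that pair from replicates 1 and 2. The direction also rests on the scaling: with each array centred on its median the interaction called 6 of the 44 more negative (Mcm3, Mcm5, Orc6, Cdc6, Mcm10 and Fen1) and 6 more positive (Orc3, Orc4, Cdt1, Dbf4, Gins4 and Pcna), and with quantile normalisation it called 18 and 0. Under centring 2.28% of all genes were called more negative and 15.4% more positive (3.4% and 33.5% of the equally bright genes), against 13.6% and 13.6% of the 44, so the share more positive was below that of all genes and the share more negative above it. Centring moved the median of all genes in replicate 3 to 0.16 and in replicates 1 and 2 to -0.10, and under it the median of the 44 genes was -0.56 in replicate 3 and -0.42 in replicates 1 and 2. Among the 44 genes the differences in the 2 sets of replicates correlated at r = 0.51 (Spearman 0.42, across genes, which are not independent replicates), against r = 0.55 over the 7860 equally bright genes.

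**Figure D2:**
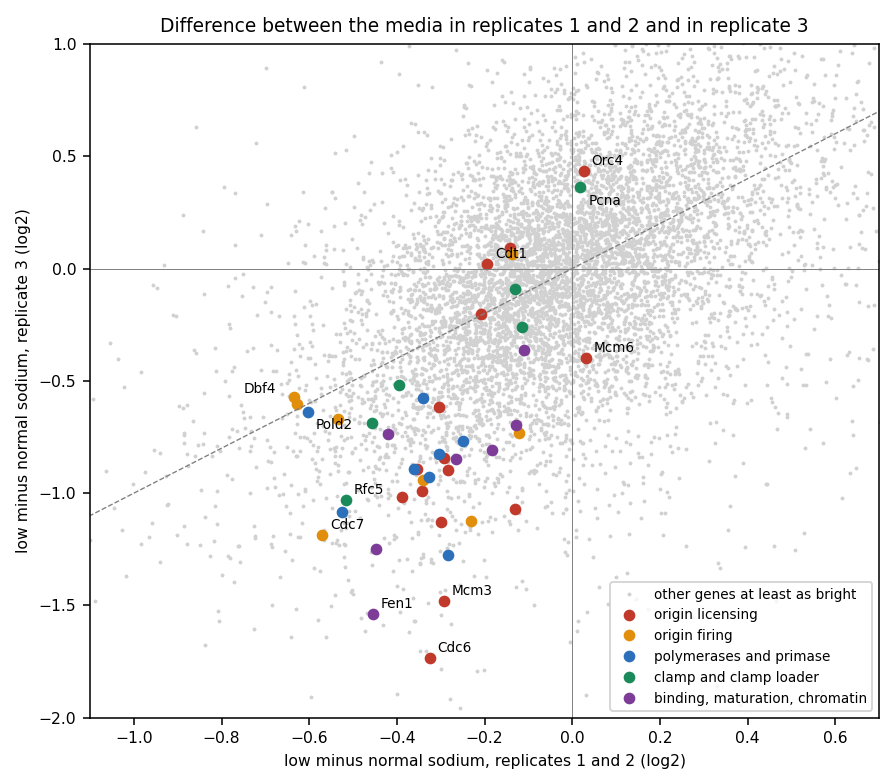
Low minus normal sodium in replicates 1 and 2 (x axis, log2) against the same in replicate 3 (y axis, log2), for the 44 replication genes coloured by role and, in grey, for other genes at least as bright. The dashed line marks equal differences, the axes leave out the most extreme grey points, and most coloured points lie below the line, with Cdc6 at -1.73 and Fen1 at -1.54 in replicate 3.

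Since most of the genes had differences of 1 sign, the promoter windows of the list were read from RefSeq (mouse build GRCm38.p6, 250 bases before to 50 bases after each annotated start). At least 1 window was found for 37 of the 45 genes. The E2F letters (TTCCCGC, or else TTCGCGC, or else TTGCCGC, or else TTGGCGC, on either strand) occurred in 24 of the 37 (64.9%), against 13.7% of 17491 protein-coding genes. The letters CCAAT, on either strand, occurred in 62.2% against 42.3%, and those of the CHR element, TTTGAA on either strand, in 18.9% against 18.5%. The CCAAT letters can share bases with TTGGCGC. Among 25 mitosis genes with a window, the E2F letters occurred in 8.0% and the CHR letters in 68.0%. A match is a description of the letters and not a bound site. The median difference in replicate 3 was -0.85 over the 23 measured genes with E2F letters and -0.70 over the 13 with a window and none, and in replicates 1 and 2 it was -0.33 and -0.30. The interaction called 10 of the 23 and 5 of the 13 more negative in replicate 3. The 4 windows below are examples and do not stand for the list. The helicase genes Mcm3 and Mcm5 hold E2F letters and were called more negative by the interaction. Dbf4 and Pcna hold none. On uncentred values Dbf4 fell alike in all replicates and Pcna was called more positive in replicate 3. With each array centred on its median, both Dbf4 and Pcna were called more positive in replicate 3. Other genes differed from these examples. Mcm6 had 5 matches and a difference of -0.11 over all arrays. The 5 genes without E2F letters called more negative were Orc6, Mcm10, Rfc5, Pola2 and Slbp. Capitals mark the E2F letters, and overlapping matches on the 2 strands run together.
Mcm3 (chr1:20820263-20820562, minus strand): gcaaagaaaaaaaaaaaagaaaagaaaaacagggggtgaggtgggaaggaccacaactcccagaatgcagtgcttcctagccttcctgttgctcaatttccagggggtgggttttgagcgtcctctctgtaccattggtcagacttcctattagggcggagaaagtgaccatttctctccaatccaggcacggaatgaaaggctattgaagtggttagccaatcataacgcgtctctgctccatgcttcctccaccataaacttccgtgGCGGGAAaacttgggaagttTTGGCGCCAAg
Mcm5 (chr8:75109259-75109558, plus strand): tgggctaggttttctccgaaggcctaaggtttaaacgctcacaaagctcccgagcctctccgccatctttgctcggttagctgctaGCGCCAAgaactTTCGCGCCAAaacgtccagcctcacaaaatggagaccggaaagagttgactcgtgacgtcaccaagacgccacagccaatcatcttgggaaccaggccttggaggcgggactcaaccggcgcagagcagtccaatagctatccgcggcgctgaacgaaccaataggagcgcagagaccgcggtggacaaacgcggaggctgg
Dbf4 (chr5:8422667-8422966, minus strand): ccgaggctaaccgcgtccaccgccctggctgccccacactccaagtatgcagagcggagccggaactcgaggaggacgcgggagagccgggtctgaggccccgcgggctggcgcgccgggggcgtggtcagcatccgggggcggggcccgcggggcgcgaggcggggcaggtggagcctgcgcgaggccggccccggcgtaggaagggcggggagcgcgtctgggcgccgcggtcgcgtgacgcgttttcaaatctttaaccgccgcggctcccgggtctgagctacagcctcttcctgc
Pcna (chr2:132253131-132253430, minus strand): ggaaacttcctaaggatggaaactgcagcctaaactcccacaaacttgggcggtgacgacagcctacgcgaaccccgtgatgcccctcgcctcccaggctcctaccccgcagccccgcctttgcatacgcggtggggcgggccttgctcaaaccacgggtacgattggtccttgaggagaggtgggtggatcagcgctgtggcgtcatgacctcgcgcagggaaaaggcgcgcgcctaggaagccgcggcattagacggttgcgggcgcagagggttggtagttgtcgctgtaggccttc

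**Figure D3:**
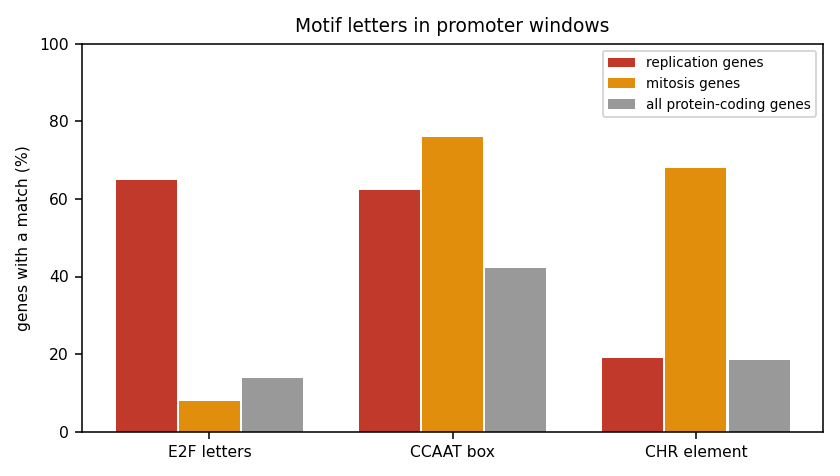
Share of genes (y axis, percent of genes with a window) whose promoter window holds the E2F, CCAAT or CHR letters, for replication genes, mitosis genes and all protein-coding genes. E2F letters were in 64.9% of replication genes and 8.0% of mitosis genes, and CHR letters in 18.9% and 68.0%.

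Of the 6 genes of the origin recognition complex, which marks origins, 1 fell in the replicate-3 fit, and the median was -0.18 in the first pair of replicates and -0.41 in replicate 3 (-0.30 and -0.18 with each array centred on its median). Orc5, an ATP-binding subunit, read 10.46, 10.36 and 10.23 in low sodium, against 10.72, 10.71 and 10.85 in normal sodium. The groups did not overlap, and Orc5 fell by 0.41 ± 0.09 (SE, n = 3 against 3, adjusted p = 0.0407). Orc1, the subunit whose level is known to vary over the cell cycle in human cells, read 8.05, 8.39 and 7.33 in low sodium, against 8.57, 8.55 and 8.32 in normal sodium. The SD was 0.54 over the low-sodium arrays, the lowest of them replicate 3, and 0.14 over the normal-sodium arrays (difference -0.56 ± 0.19, adjusted p = 0.139). The other bright probe set of Orc1 differed by 0.05. Orc6, a small subunit needed for helicase loading, read 10.14, 10.04 and 8.90 in low sodium, against 10.26, 10.18 and 9.97 in normal sodium. Replicate 3 alone was low in low sodium, and Orc6 was called by the interaction (-0.13 in replicates 1 and 2, -1.07 in replicate 3, interaction adjusted p = 0.00772). Orc2, Orc3 and Orc4 had differences of -0.21, -0.06 and 0.16 without passing. For Orc4, which was the highest, 2 other bright probe sets differed by -0.03 and -0.06. Those of Orc3 differed by -0.47 and -0.65, and those of Orc2 by -0.07 and -0.18. With the mean of all probe sets of a gene, all 6 genes were negative in replicate 3. Their median was then -0.53 in replicate 3 and -0.11 in replicates 1 and 2.

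Of the 3 genes that control helicase loading 1, Gmnn, fell. Cdc6, the loader, read 9.93, 9.95 and 8.04 in low sodium, against 10.28, 10.24 and 9.77 in normal sodium. The low-sodium array of replicate 3 was lowest by far, and the media differed by -0.33 in the first pair of replicates and by -1.73 in replicate 3 (interaction adjusted p = 0.00203), while the replicate-3 fit did not call it (adjusted p = 0.121). Cdt1, the partner of CDC6 in loading, read 12.57, 12.61 and 12.56 in low sodium, against 12.73, 12.83 and 12.54 in normal sodium. The groups overlapped, and its difference of -0.12 ± 0.07 did not pass (adjusted p = 0.387). Gmnn, which encodes geminin, the inhibitor of CDT1, read 12.04, 12.06 and 11.26 in low sodium, against 12.33, 12.36 and 12.10 in normal sodium. Every low-sodium array lay below every normal-sodium array, and Gmnn fell by 0.48 ± 0.11 (adjusted p = 0.0467), with -0.29 in replicates 1 and 2 and -0.84 in replicate 3 (interaction adjusted p = 0.00754).

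All 6 subunits of the MCM2-7 helicase, the motor of the fork, had negative differences over all arrays together, and 2 of them fell. Their differences had a median of -0.96 in replicate 3 and -0.30 in the other replicates, and 5 of 6 were called more negative in replicate 3 (2 of 6 with each array centred on its median). Mcm7 read 13.07, 13.10 and 12.46 in low sodium, against 13.42, 13.52 and 13.47 in normal sodium. The groups were well separated, and Mcm7 fell by 0.60 ± 0.12 (adjusted p = 0.0316), which was 1.51-fold. Mcm2, the subunit that also carries histones at the fork, read 11.63, 11.79 and 10.48 in low sodium, against 11.94, 12.19 and 11.38 in normal sodium. Replicate 3 was low in both media, so the groups overlapped, and with the replicate-3 term Mcm2 fell by 0.53 ± 0.13, just inside the threshold (adjusted p = 0.0492), while its other bright probe set differed by -0.14. It was also the 1 subunit not called by the interaction (adjusted p = 0.0827).

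Mcm4 lay just outside the threshold (adjusted p = 0.0576). Its values were 11.94, 11.88 and 10.68 in low sodium, against 12.19, 12.19 and 11.57 in normal sodium. Mcm3 read 11.97, 11.95 and 10.54 in low sodium, against 12.23, 12.27 and 12.02 in normal sodium. The low-sodium array of replicate 3 was more than a log2 unit below the rest, and the difference of -1.48 there against -0.29 in replicates 1 and 2 gave the smallest interaction p of the list (adjusted p = 0.000779). Mcm5 read 12.67, 12.68 and 11.70 in low sodium, against 12.92, 13.03 and 12.82 in normal sodium. Its groups did not overlap, and its difference of -0.58 ± 0.16 did not pass (adjusted p = 0.0726). Mcm6 was the exception among the subunits, at 12.75, 12.72 and 11.90 in low sodium, against 12.64, 12.76 and 12.30 in normal sodium. In replicates 1 and 2 the media differed by 0.03 and in replicate 3 by -0.40, and the replicate-3 fit gave -0.11 ± 0.10 (adjusted p = 0.582).

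Of 8 origin-firing genes 4 fell (Cdc7, Dbf4, Gins1 and Gins3), the groups did not overlap in 6, and the median came to -0.44 in replicates 1 and 2 and -0.70 in replicate 3 (-0.56 and -0.47 with each array centred on its median). Dbf4, the regulatory subunit that activates the CDC7 kinase, read 11.002, 11.06 and 10.87 in low sodium, against 11.65, 11.68 and 11.45 in normal sodium. Its low-sodium arrays all lay well below the normal-sodium arrays, it fell by 0.61 ± 0.07, and it had the smallest adjusted p of the list (0.00321). Replicate 3 gave -0.57 and the other replicates -0.63. With each array centred on its median, the difference in replicate 3 was more positive than in the other replicates by 0.41. Cdc7, the catalytic subunit, fell by 0.78 ± 0.17 (adjusted p = 0.0394). Gins1, a subunit of the helicase-activating GINS complex, read 9.69, 9.97 and 9.87 in low sodium, against 10.42, 10.30 and 10.54 in normal sodium. The groups were separate and Gins1 fell by 0.58 ± 0.10 (adjusted p = 0.0186), although its other bright probe set differed by 0.02. Gins3 fell by 0.62 ± 0.12, with -0.63 and -0.60 in the 2 sets of replicates.

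The other 4 firing genes did not pass. Gins2 read 10.60, 10.55 and 9.98 in low sodium, against 10.67, 10.72 and 10.71 in normal sodium. Only its replicate 3 array in low sodium was clearly low (interaction adjusted p = 0.0156). Mcm10, which helps start the activated helicase, read 10.12, 10.22 and 8.86 in low sodium, against 10.41, 10.39 and 9.99 in normal sodium. It too was lowest in replicate 3 of low sodium, at -1.12 there against -0.23 in replicates 1 and 2 (interaction adjusted p = 0.00772). Cdc45, the helicase partner of GINS, differed by -0.54 ± 0.14 (adjusted p = 0.0689), and Gins4 by -0.07 ± 0.08 (adjusted p = 0.692).

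All polymerase and primase genes had negative differences in both sets of replicates. Of 8 genes 4 fell (Pola1, Prim1, Pold1 and Pold2), the groups did not overlap in 6, and the median came to -0.33 in replicates 1 and 2 and -0.86 in replicate 3 (-0.45 and -0.63 with each array centred on its median). Pold2, an accessory subunit of the lagging-strand polymerase delta, read 10.52, 10.71 and 10.70 in low sodium, against 11.23, 11.20 and 11.34 in normal sodium. The groups were well separated, and Pold2 fell by 0.61 ± 0.08 (adjusted p = 0.0057), alike in replicates 1 and 2 (-0.60) and replicate 3 (-0.64). With each array centred on its median, the Pold2 difference in replicate 3 was more positive by 0.31. Pold1, its catalytic subunit, fell by 0.42 ± 0.08 (adjusted p = 0.0239). Pola1, the catalytic subunit of the priming polymerase alpha, read 10.03, 10.01 and 9.005 in low sodium, against 10.45, 10.64 and 10.09 in normal sodium. The highest low-sodium array lay just under the lowest normal-sodium array, that of replicate 3, and Pola1 fell by 0.71 ± 0.13 (adjusted p = 0.0205). Prim1, the primase subunit that makes the RNA primer, read 10.53, 10.59 and 9.86 in low sodium, against 10.92, 10.92 and 10.75 in normal sodium. It fell by 0.54 ± 0.12 (adjusted p = 0.0359) and was more negative in replicate 3 (interaction adjusted p = 0.0226).

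Pola2, the regulatory subunit of polymerase alpha, read 10.29, 10.43 and 9.56 in low sodium, against 10.70, 10.63 and 10.39 in normal sodium. Replicate 3 of normal sodium lay below low-sodium replicate 2, so the groups overlapped, and its difference of -0.48 ± 0.12 did not pass (adjusted p = 0.0591). Pole, the catalytic subunit of the leading-strand polymerase epsilon, read 9.69, 9.996 and 8.49 in low sodium, against 10.19, 10.06 and 9.76 in normal sodium. Its low-sodium arrays had an SD of 0.80, the lowest being replicate 3, and the media differed by -1.28 there and by -0.28 in replicates 1 and 2 (interaction adjusted p = 0.0263). Pole2, its accessory subunit, read 10.12, 10.08 and 9.54 in low sodium, against 10.46, 10.39 and 10.47 in normal sodium. The groups did not overlap, and the difference of -0.53 ± 0.13 lay just outside the threshold (adjusted p = 0.0544). Prim2, the large primase subunit, differed by -0.42 without passing (adjusted p = 0.106), and its other bright probe set differed by 0.31.

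Among the 6 clamp and loader genes 3 fell, all of them loader subunits, with medians of -0.26 in replicates 1 and 2 and -0.39 in replicate 3 (-0.38 and -0.16 with each array centred on its median). Pcna, the sliding clamp, read 14.46, 14.46 and 14.75 in low sodium, against 14.45, 14.43 and 14.39 in normal sodium. Replicate 3 of low sodium was the highest array, the other 5 lay close together, and all low-sodium arrays were above the normal-sodium arrays, as in 8.44% of all genes. The difference of 0.13 ± 0.08 did not pass the replicate-3 fit (adjusted p = 0.41), and Pcna was the 1 gene of the list called more positive in replicate 3 (interaction adjusted p = 0.0176). Rfc5, like the other Rfc genes a subunit of the clamp loader, read 11.10, 11.13 and 10.55 in low sodium, against 11.62, 11.63 and 11.58 in normal sodium. Its groups were separate, and it fell by 0.69 ± 0.11 (adjusted p = 0.0121), with -0.52 in replicates 1 and 2 and -1.03 in replicate 3. Rfc2 read 10.78, 10.73 and 10.79 in low sodium, against 11.15, 11.16 and 11.31 in normal sodium. Here the 3 low-sodium arrays agreed to an SD of 0.03, and Rfc2 fell by 0.44 ± 0.07 (adjusted p = 0.0128). Rfc4 fell by 0.53 ± 0.10 (adjusted p = 0.019), whereas Rfc1, the large subunit, at -0.16 and Rfc3 at -0.12 did not pass. Other bright probe sets differed by -0.23 and -0.44 for Rfc1 and by -0.44 for Rfc3. Those of Rfc2 differed by -0.15 and -0.27, and that of Rfc4 by -0.67.

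**Figure D4:**
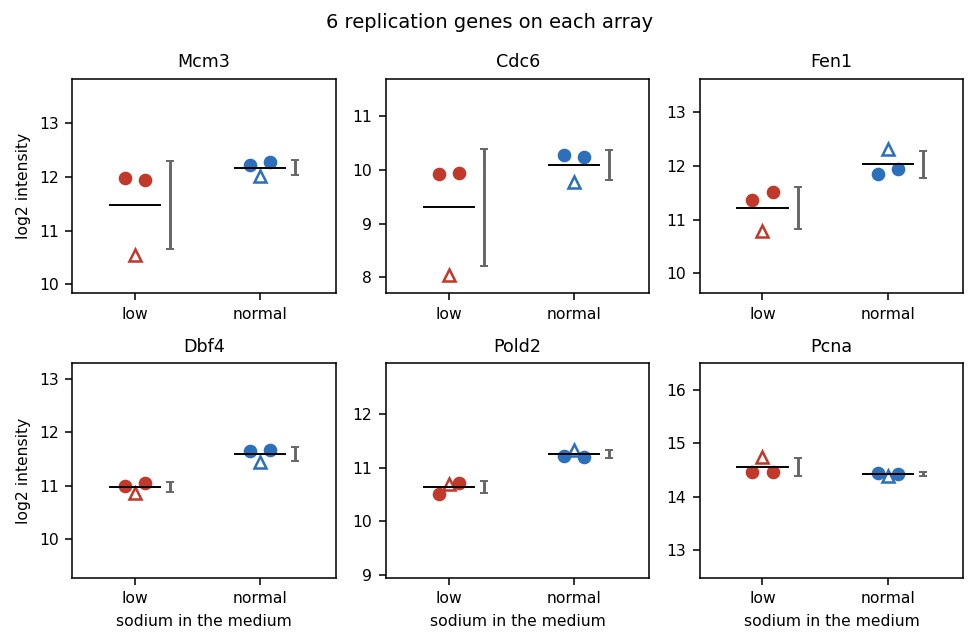
Log2 intensity (y axis) of 6 replication genes in low and normal sodium. Circles are replicates 1 and 2, open triangles replicate 3, black lines the mean and grey bars the SD (n = 3). On these uncentred values Dbf4 and Pold2 were lower in low sodium alike in all replicates. Mcm3, Cdc6 and Fen1 were lowest in replicate 3 of low sodium, and Pcna was highest there. With each array centred on its median, the differences of Dbf4 and Pold2 were more positive in replicate 3, by 0.41 and 0.31.

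Of the 3 subunits of RPA, which coats single-stranded DNA, 2 fell and none of the 3 had overlapping groups. Rpa3 read 10.69, 10.74 and 10.42 in low sodium, against 11.11, 11.17 and 11.16 in normal sodium. It fell by 0.53 ± 0.09 (adjusted p = 0.0147). Rpa2 read 10.29, 10.38 and 9.23 in low sodium, against 10.86, 10.71 and 10.48 in normal sodium. Its replicate 3 array in low sodium was the lowest by more than a log2 unit, and Rpa2 fell by 0.71 ± 0.16 (adjusted p = 0.0407, interaction adjusted p = 0.0149). Rpa1, the large subunit, differed by -0.19 ± 0.07 (adjusted p = 0.167).

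Both genes that finish lagging-strand fragments had separate groups and missed the threshold. Fen1, the flap nuclease, read 11.36, 11.51 and 10.78 in low sodium, against 11.84, 11.94 and 12.32 in normal sodium. Replicate 3 was the highest of the normal-sodium arrays and the lowest of the low-sodium arrays, and the difference of -0.82 ± 0.20 was the largest of the list over all arrays (adjusted p = 0.0531, 1.76-fold). Lig1, the ligase that seals the fragments, read 11.62, 11.76 and 11.16 in low sodium, against 11.92, 11.996 and 12.01 in normal sodium. It differed by -0.46 ± 0.12 (adjusted p = 0.0686). Both were called more negative in replicate 3 (interaction adjusted p = 0.00359 for Fen1 and 0.0202 for Lig1).

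Chaf1b, a subunit of the chromatin assembly factor CAF-1, read 9.83, 10.03 and 9.15 in low sodium, against 10.05, 10.17 and 9.96 in normal sodium. The groups overlapped and the difference of -0.39 ± 0.14 did not pass (adjusted p = 0.166), and its other bright probe set differed by 0.17. Slbp, which binds histone mRNA, read 11.71, 11.76 and 10.92 in low sodium, against 11.87, 11.86 and 11.61 in normal sodium. It differed by -0.32 ± 0.12 (adjusted p = 0.162) and was more negative in replicate 3 (interaction adjusted p = 0.00895). Over the whole list, 30 genes had another bright probe set, and 36 of these 42 probe sets differed in the direction of the chosen one.

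Set side by side, origin-licensing genes had medians of -0.29 in replicates 1 and 2 and -0.89 in replicate 3 (15 genes, 4 fell), polymerase and primase genes -0.33 and -0.86 (8 genes, 4 fell), and clamp and loader genes -0.26 and -0.39 (6 genes, 3 fell). In replicates 1 and 2 the 3 medians were close together, and in replicate 3 that of the clamp and loader genes was the nearest to 0. Within licensing, the replicate 3 median was -0.41 for the origin recognition complex, close to the clamp and loader genes, and -0.96 for the MCM2-7 helicase. In these 3 groups the interaction called 8, 4 and 1 genes more negative in replicate 3, and 0, 0 and 1 more positive. With each array centred on its median it called 4, 0 and 0 more negative and 3, 0 and 1 more positive, where 2.28% and 15.4% of all genes were called. Whether the roles differed from each other was not tested, since genes of a role share their arrays.

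Other genes of the fork, nucleotide supply, the G1/S transition and mitosis were measured beside the list. In the replicate-3 fit 3.81% of all genes were called lower and 3.78% higher, and 8.38% of the equally bright genes lower. Among 34 other fork genes 10 fell and 0 rose. Examples were Tonsl, which acts in repair at forks, by 0.92 ± 0.14, and the histone chaperone gene Nasp by 0.86 ± 0.14. The checkpoint gene Topbp1 fell by 0.51 ± 0.08 and the ribonuclease H2 subunit gene Rnaseh2c by 0.66 ± 0.12. The median of the 34 was -0.27 in replicates 1 and 2 and -0.74 in replicate 3 (-0.39 and -0.51 with each array centred on its median). The interaction called 13 of the 34 more negative in replicate 3 and 0 more positive, where 5.35% and 4.75% of all genes were called. With each array centred on its median it called 7 and 4, where 2.28% and 15.4% of all genes were called. Of 12 nucleotide supply genes 8 fell and 0 rose (medians of -0.52 and -0.94, or -0.64 and -0.72 with each array centred on its median). The thymidine kinase gene Tk1 fell by 0.99, the dUTPase gene Dut by 0.94, the pyrimidine synthesis gene Cad by 0.92 and the ribonucleotide reductase gene Rrm1 by 0.62. Of 31 G1/S regulators 9 fell and 3 rose (7 and 1 with each array centred on its median). The S-phase cyclin gene Ccna2 fell by 0.74, the E2F partner gene Tfdp1 by 0.64 and the repressor gene E2f8 by 0.99, whereas the kinase gene Cdk6 rose by 0.81 ± 0.11, the p21 gene Cdkn1a by 0.62 and the cyclin gene Ccnd1 by 0.65.

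Of 29 mitosis genes 27 fell and 0 rose, against 17 and 0 of 44 replication genes, and their median came to -0.71 in replicates 1 and 2 and -0.78 in replicate 3, against -0.30 and -0.79 for replication genes. With each array centred on its median these medians were -0.83 and -0.55 for mitosis genes, against -0.42 and -0.56 for replication genes. Aurkb, a kinase of chromosome segregation, fell by 0.93 ± 0.07, the checkpoint kinase gene Bub1b by 1.02 ± 0.08, the cyclin gene Ccnb2 by 0.85 and Cdc20, an activator of the anaphase-promoting complex, by 0.80. The interaction called 4 mitosis genes more negative and 3 more positive in replicate 3 (13.8% and 10.3%), against 19 and 1 replication genes (43.2% and 2.27%). Of all genes 5.35% were called more negative and 4.75% more positive, and of the equally bright genes 10.4% and 10.3%. With each array centred on its median these counts were 0 and 7 for mitosis genes and 6 and 6 for replication genes, beside 2.28% and 15.4% of all genes. The difference between the lists was not tested.

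**Figure D5:**
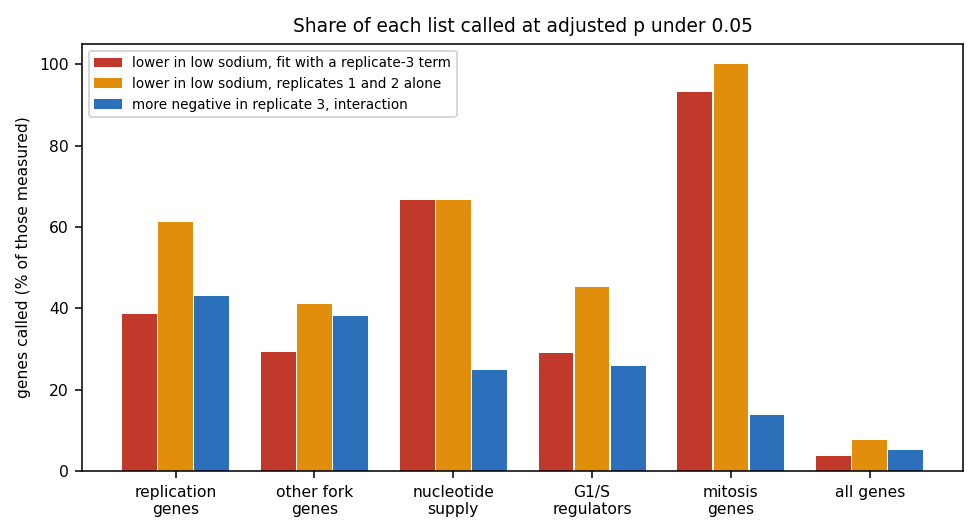
Share of genes called (y axis, percent of measured genes at adjusted p under 0.05) for replication genes, 4 further lists and all genes. Red bars are genes lower in low sodium in the replicate-3 fit, orange bars the same in replicates 1 and 2 alone, and blue bars genes more negative in replicate 3 by the interaction. Mitosis genes have the highest red and orange bars, and replication genes the highest blue bar. Other fork genes have the next blue bar (38.2% against 43.2%). With each array centred on its median these shares were 20.6% for other fork genes and 13.6% for replication genes.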

How the data were processed

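Per the labels, total RNA of RAW264.7 cells was hybridised to Affymetrix mouse arrays, and Partek is named per the submitters' processing notes. The authors deposited 1 intensity value per probe set and array on a linear scale; the summarisation and normalisation are not given in the sources used here. From these, log2(intensity + 1) was computed, and genes were tested with limma 3.58.1 in R 4.3.3, with Benjamini-Hochberg adjustment over 18193 genes and a threshold of 0.05. The fits were the plain comparison, one with a term for replicate 3 and a trended prior, and its interaction with medium. The fit with the replicate-3 term and its interaction are exploratory, since an earlier analysis of these arrays chose them with counts in view. Members and lists were chosen with earlier results of these data known. Values of every array are given for the 2 genes of each role with the smallest p in the fit with the replicate-3 term, for Pcna, Mcm2, Cdt1 and Gmnn, and for genes called in the interaction; of the other lists, up to 4 genes with the smallest p are named. Cdkn1a and Ccnd1 were added after their values were seen. Alternatives were another pseudocount, dim genes left out, quantile normalisation, centring, the mean of probe sets, robust and weighted fits, a replicate block and leaving out each array. Promoter windows came from RefSeq.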

Additional observations from a re-analysis of the deposited data

Results flagged for a closer look

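The low minus normal sodium difference itself differed between replicate 3 and replicates 1 and 2, by an interaction term in limma, for 20 of the 44 replication genes. Each value here is the log2 difference in replicate 3 minus that in replicates 1 and 2. Among licensing genes it was -1.41 for Cdc6, -1.19 for Mcm3, -0.94 for Orc6, -0.83 for Mcm5, -0.63 for Mcm7, -0.62 for Mcm4, -0.55 for Gmnn and -0.43 for Mcm6. Among firing genes it was -0.89 for Mcm10 and -0.61 for Gins2. Among polymerase genes it was -0.99 for Pole, -0.60 for Pole2, -0.53 for Prim1 and -0.52 for Pola2. It was -1.08 for Fen1, -0.80 for Rpa2, -0.58 for Lig1, -0.57 for Slbp and -0.51 for Rfc5. For Pcna alone it was positive, at 0.34. Replicate 3 has 1 array of each medium, so its own spread was not measured, and with a constant prior the interaction called 0 of the 44. With each array centred on its median, 7 of these 20 were called with the same sign (Cdc6, Mcm3, Orc6, Mcm5, Mcm10, Fen1 and Pcna).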

How the results depend on the processing

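The negative median over the 44 genes (-0.51) kept its sign under each alternative run. It was -0.43 with the mean of all probe sets of a gene, -0.33 with array weights, -0.30 in replicates 1 and 2 alone, -0.79 in replicate 3 alone, and between -0.62 and -0.24 with 1 array left out, the last without low-sodium replicate 3. The replicate-3 fit called 17 genes, 8 with the mean of all probe sets, 27 on replicates 1 and 2 alone, 0 with a constant prior, and between 2 and 26 with 1 array left out. The interaction called 20, 12 with each array centred on its median, 0 with a constant prior, and between 14 and 18 with 1 array of replicates 1 and 2 left out; a replicate 3 array cannot be left out of it. The plain comparison called 0 and stayed at 0 with 1 array left out. Mcm6, not called, was positive with the mean of all probe sets (0.089) and at 0.032 on replicates 1 and 2 alone or without the replicate 3 array of low or of normal sodium; with 1 array left out it was between -0.18 and 0.032. Over all settings for single named genes, Mcm6 included, 367 left the call and sign as they were, 82 lost the call, 43 gained one and 4, all of Mcm6, turned the sign. Replicates with the same number correlated at 0.10, 0.08 and 0.24 in their deviations, and low-sodium replicate 2 correlated at 0.10 with normal-sodium replicate 1. Values this close do not settle whether replicates 1 and 2 were paired by number. The main fits did not take the numbers as pairs. A replicate block with a trended prior called 3 genes (Dbf4, Pold2 and Rfc5). The number of arrays limits precision, and the cause of these changes was not tested.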
